A study of Mus musculus with 6 samples.

Results

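The transcription factor Nrf2, encoded by Nfe2l2, and 9 of its best known target genes in glutathione and redox metabolism were followed across WT and c-Maf KO macrophage cultures. The 10 genes are Nfe2l2, Slc7a11, Gclc, Gclm, Gsr, Gsta3, Txnrd1, Srxn1, Nqo1 and Me1. They were found by the gene name the array files give each non-control probe, which took 14 of 55681 probes. Every one of the 14 probes was well above background on at least 2 of 5 arrays, the filter applied, and the 10 genes stand among 20252 genes or unnamed features tested. The rule that took their probes used names and no measured value, but the genes were chosen with earlier results of these data known.

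RNA came from cultures labelled polarized M2-like BMM, derived from chimeric mice that carried WT or c-Maf KO fetal liver. There were 3 WT and 3 c-Maf KO samples, hybridised to 1-colour Agilent mouse arrays. Both genotypes were grown with the macrophage growth factor M-CSF at 10 ng/ml, added daily from day 4, and no polarizing cytokine is named for either. The labels give no strain, age, allele or number of animals and name liver as the tissue. The protocol takes cells of fetal liver and bone marrow, and how many blood cells of the host remained is not stated. Nor is it stated that replicates were separate mice. The p-values therefore set a difference against the spread among these samples only, and that spread may be technical.

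Nrf2 is held in the cytoplasm and marked for destruction by Keap1. Electrophiles and oxidants modify Keap1, and Nrf2 then accumulates, pairs with a small Maf protein (MafF, MafG or MafK) and binds antioxidant response elements near genes of glutathione synthesis, thioredoxin reduction, NADPH supply and detoxification. c-Maf is a large Maf protein, with its own activation domain, and the full Maf recognition element contains the core of the antioxidant response element. In macrophages this programme buffers the oxidants that the cells make themselves.

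The motifs named here were searched on both strands of RefSeq promoter windows of GRCm38.p6, from 250 bases before to 50 bases after each annotated start. Windows were found for 8 of the 10 genes, 11 windows in all, and none was matched for Gclc or Gsr. The core of the antioxidant response element, TGACNNNGC, was present in windows of 6 of these 8 genes, and in 12.4% of all 32851 windows or 14% of 27025 genes. These genes are known targets, so the share is no independent evidence. TGANTCA, the AP-1 type site, matched in 2 of the 8 genes, beside 8.97% of all genes and 7.81% of all windows. In Me1 it overlaps the antioxidant core match. TGCTGA joins the outer flank of a Maf recognition element, TGC, to the TGA of its core. It matched in 0 of the 11 windows and in 19.5% of all windows. TGATGCAA, of the type bound by amino acid response factors such as Atf4, matched in Slc7a11 alone of the 8. It was present in 1.03% of all genes and 0.895% of all windows. A match describes letters and is not a binding site shown here. The following stretches are shown because they hold the matches found before the start of each gene: the antioxidant core for Gsta3, Gclm, Me1, Txnrd1 and Nfe2l2, the AP-1 type site for Srxn1 and the amino acid response type for Slc7a11. Each runs 5′ to 3′ on the strand of the motif, with the matches in capitals.
Gsta3 (chr1:21240444-21240492): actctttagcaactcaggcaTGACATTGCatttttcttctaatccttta
Gclm (chr3:122245403-122245451): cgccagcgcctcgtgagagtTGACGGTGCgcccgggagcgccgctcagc
Me1 (chr9:86695892-86695940): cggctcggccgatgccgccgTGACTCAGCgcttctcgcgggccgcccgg
Txnrd1 (chr10:82859094-82859142): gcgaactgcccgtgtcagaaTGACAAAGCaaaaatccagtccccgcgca
Nfe2l2 (chr2:75704875-75704913): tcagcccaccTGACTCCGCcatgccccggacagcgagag
Srxn1 (chr2:152105402-152105505): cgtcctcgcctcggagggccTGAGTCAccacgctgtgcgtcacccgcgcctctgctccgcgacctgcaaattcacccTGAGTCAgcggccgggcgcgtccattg
Slc7a11 (chr3:50443633-50443699): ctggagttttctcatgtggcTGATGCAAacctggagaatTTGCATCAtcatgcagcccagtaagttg
The match nearest a start was that of Me1, which begins 6 bases before it. The matches of Gsta3, Gclm, Txnrd1 and Nfe2l2 begin 121, 134, 92 and 240 bases before the start, and those of Gclm and Txnrd1 read on the strand opposite to the gene. Srxn1 carries a pair of AP-1 type matches and, not shown, a core match 29 bases after the start. Slc7a11 carries its motif once on each strand. The window of Nqo1 holds none of the letters searched.

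Values of the 6 samples below are log2 ratios of a probe to its own median over the 6 samples, from the authors' value table, given in the order of replicates 1, 2 and 3. Because the median of 6 samples lies midway between the middle 2, those 2 always read as one size with opposite signs. Processed intensities are spot brightness on the 5 arrays with scanner files, which are the 3 of WT followed by replicates 2 and 3 of c-Maf KO; for replicate 1 of c-Maf KO only the value table was used. Intensities of different probes are not compared. Differences are c-Maf KO minus WT on the log2 scale, tested with limma over all genes with Benjamini-Hochberg adjustment and a threshold of 0.05, on the value table with 3 samples each and again on the 5 arrays with 3 WT and 2 c-Maf KO. Between 48.9% and 50.55% of an array's probes were well above background, and none was saturated. On these 5 arrays genotype cannot be told apart from position on the slide. The 3 WT arrays lay in row 1 and c-Maf KO replicates 2 and 3 in row 2. The row of c-Maf KO replicate 1 is not known here.

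The deleted gene checks the labels. The brightest Maf probe had log2 ratios of 1.92, 1.98 and 2.03 in WT and -2.22, -2.36 and -1.92 in c-Maf KO, a difference of -4.14 (limma adjusted p = 0.00055). Of the 20252 features, 7 passed on the 5 arrays and 7 on the value table, 0.0346% in each case. None of the 10 genes of the Nrf2 pathway was among them.

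The 10 genes nevertheless leaned one way. All 10 had a positive difference on the value table and 9 on the 5 arrays, and the median difference was 0.21 on the value table, against 0.0017 over all features, and 0.18 on the 5 arrays, against -0.011. For 6 of the 10 genes, and 9 of the 14 probes, each c-Maf KO sample lay above each WT sample, whereas for none did all lie below. Over all features, 11.1% had each c-Maf KO sample above each WT sample and 8.87% had each below. An unadjusted p under 0.05 was reached by 5 of the 10 genes on the value table, where 12.6% of all features reached it, and by 4 on the 5 arrays, where 11.0% did. With limma's trend and robust options, which passed 0.415% of features on the value table and 0.395% on the 5 arrays, Slc7a11 passed on the value table alone (adjusted p = 0.049) and Gsta3 on the 5 arrays alone (adjusted p = 0.044). The members share their samples, so these counts are no test of the pathway as a whole.

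**Figure D1:**
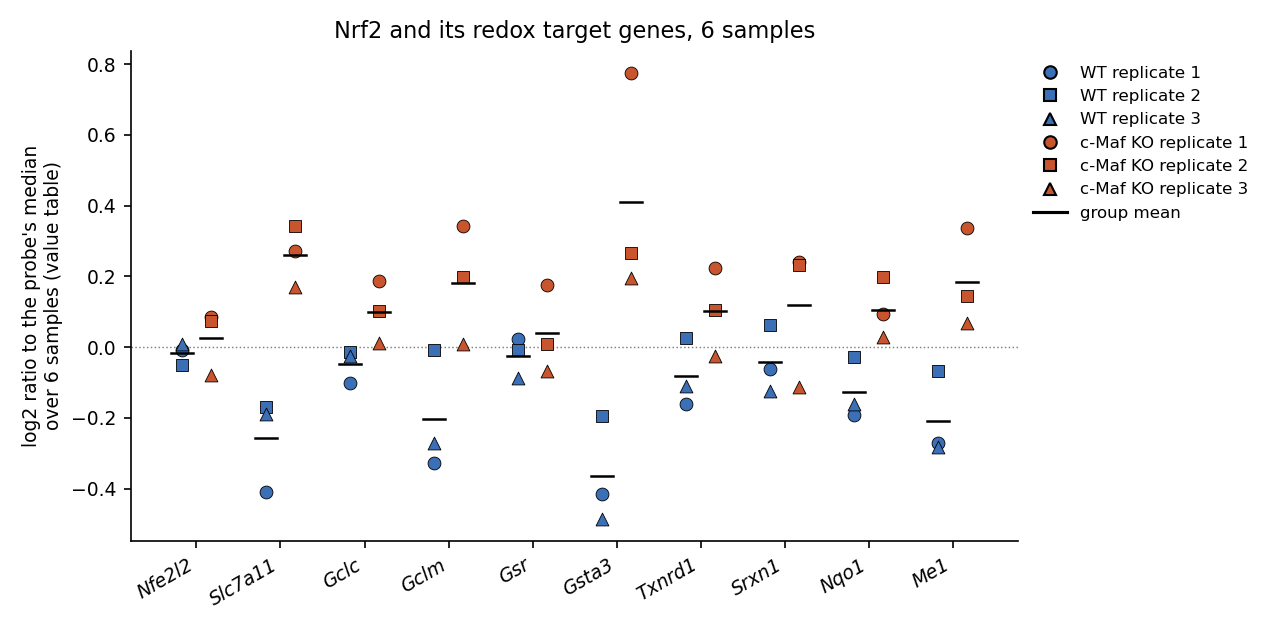
Log2 ratio of each of the 10 genes to its probe's median over the 6 samples (vertical axis, value table), with WT in blue, c-Maf KO in orange, a symbol per replicate and a bar for each group mean. Gsta3, Slc7a11 and Me1 show the widest gaps between the genotypes, of 0.39, 0.34 and 0.14. In these values, whose columns are not centred, c-Maf KO replicate 3 is the lowest c-Maf KO sample of every gene.

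Nfe2l2 encodes Nrf2 itself. Its log2 ratios were -0.0076, -0.052 and 0.0076 in WT and 0.085, 0.073 and -0.080 in c-Maf KO. The genotypes overlapped, with c-Maf KO replicate 3 the lowest of the 6. The difference was 0.043 (SE 0.067, 95% interval -0.12 to 0.21, limma adjusted p = 0.82) on the value table and 0.012 (95% interval -0.17 to 0.19) on the 5 arrays. Processed intensities were 12722, 12111 and 13556 in WT and 13820 and 14299 in c-Maf KO. Both intervals end below the differences of Slc7a11 and Gsta3 given next. The arrays measure the messenger and not Nrf2 protein, on which Keap1 acts.

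Cystine supply and glutathione synthesis were represented by 3 members. Slc7a11 encodes xCT, the cystine carrier of the exchanger that imports cystine for glutathione. It read -0.41, -0.17 and -0.19 in WT and 0.27, 0.34 and 0.17 in c-Maf KO. The genotypes were separated by a gap of 0.34 between the highest WT and the lowest c-Maf KO sample. The difference was 0.52 (SE 0.090), a 1.43-fold higher ratio (95% interval 1.23 to 1.67), with a limma adjusted p of 0.15 on the value table, and 0.51 with an adjusted p of 0.31 on the 5 arrays. The probe was dim, with processed intensities of 51.8, 60.0 and 63.7 in WT and 89.6 and 91.5 in c-Maf KO. With normexp background correction in place of the processed intensity the difference on the 5 arrays was 0.23 (SE 0.078, adjusted p = 0.30). That correction added an offset of 50, near the size of these intensities, which by itself lowers the log2 difference of a dim probe.

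Gclc, the catalytic subunit of glutamate-cysteine ligase, which makes the first bond of glutathione, read -0.10, -0.012 and -0.026 in WT and 0.19, 0.10 and 0.012 in c-Maf KO. All c-Maf KO samples lay above all WT samples, but the gap was only 0.025, smaller than the SD within WT of 0.048. The difference was 0.15 (95% interval -0.020 to 0.31, limma adjusted p = 0.44). Gclm, the modifier subunit that raises the enzyme's affinity for glutamate, read -0.33, -0.0077 and -0.27 in WT and 0.34, 0.20 and 0.0077 in c-Maf KO. Here too the genotypes did not overlap, with a gap of 0.015 between WT replicate 2 and c-Maf KO replicate 3. The difference was 0.39 (SE 0.12, 95% interval 0.084 to 0.69, adjusted p = 0.30), or 1.31-fold.

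Of the other genes of this step, Gss, the glutathione synthetase that adds glycine, was chosen for mention after its values were seen. It read -0.25, -0.093 and -0.15 in WT and 0.21, 0.30 and 0.093 in c-Maf KO, without overlap. Its difference was 0.37 (95% interval 0.17 to 0.56, limma adjusted p = 0.20) on the value table and 0.36 on the 5 arrays. Slc3a2, the heavy chain that carries xCT to the membrane, differed by 0.067. Of the 15 genes listed for glutathione synthesis and cystine supply, the members included, 12 were measured and none passed. Of these, 10 were positive, and the median difference was 0.14. In 6 each c-Maf KO sample lay above each WT sample, beside 11.1% of all features, and in 1 each lay below, beside 8.87%.

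Glutathione use was represented by Gsr and Gsta3, of which the first had one of the smallest and the second the largest difference of the 10 genes. Gsr, the reductase that regenerates glutathione from its disulfide with NADPH, read 0.023, -0.0084 and -0.088 in WT and 0.18, 0.0084 and -0.069 in c-Maf KO. The genotypes overlapped, and only c-Maf KO replicate 1 lay above the WT range. The difference was 0.063 (95% interval -0.14 to 0.26, limma adjusted p = 0.77) on the value table and -0.0074 on the 5 arrays, which lack that sample. A second Gsr probe differed by 0.087 on the value table and -0.00067 on the 5 arrays.

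Gsta3, an alpha class glutathione S-transferase that joins glutathione to electrophiles, read -0.42, -0.19 and -0.49 in WT and 0.78, 0.27 and 0.19 in c-Maf KO. The genotypes were 0.39 apart at their nearest, and c-Maf KO replicate 1 was the highest of all. The difference was 0.78 (SE 0.17), a 1.71-fold higher ratio (95% interval 1.28 to 2.30), with a limma adjusted p of 0.21 on the value table. Without that sample, on the 5 arrays, it was 0.59 (SE 0.11, adjusted p = 0.27), or 1.51-fold. Processed intensities were 897, 1026 and 901 in WT and 1477 and 1617 in c-Maf KO. A second probe read -0.23, -0.16 and -0.26 against 0.93, 0.37 and 0.16, again without overlap, for a difference of 0.70. Among the other alpha class genes, the probes of Gsta2 and Gsta4 were not well above background on any of the 5 arrays. Gsta3 shares much of its sequence with other members of its family, and which transcripts its probes take up was not tested.

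**Figure D2:**
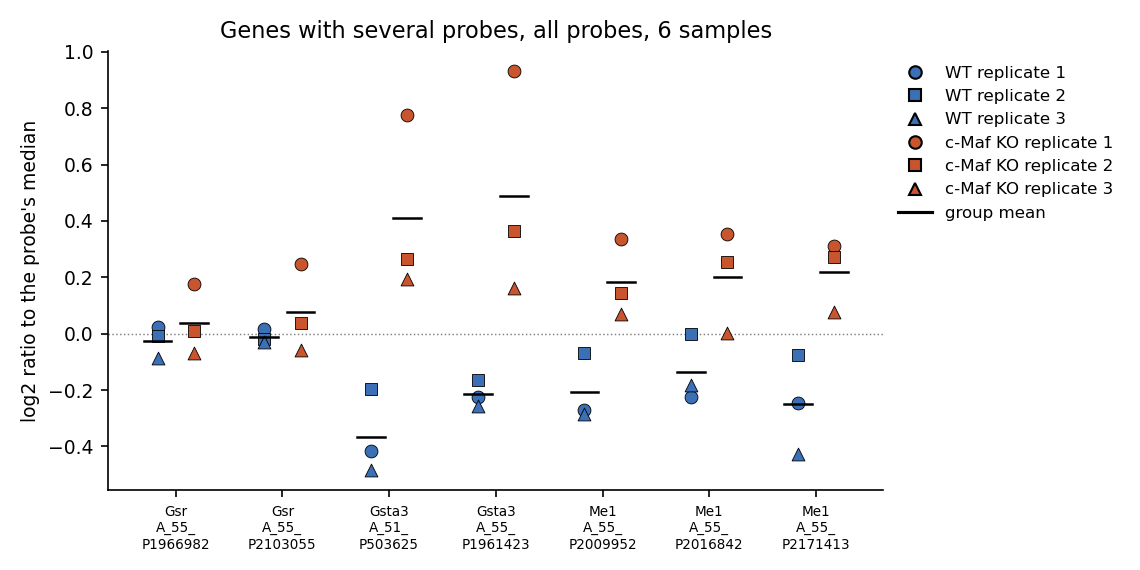
Log2 ratio to the probe's median over the 6 samples (vertical axis) for every probe of the 3 genes with several probes, with a symbol per replicate and a bar for each group mean. Both Gsta3 probes and all 3 Me1 probes place each c-Maf KO sample above each WT sample, while both Gsr probes overlap.

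The wider set of glutathione-using enzymes held 33 listed genes, of which 30 were measured. None passed, while 29 of the 30 were positive on the value table and 24 on the 5 arrays, and the median difference was 0.15. In 12 each c-Maf KO sample lay above each WT sample, beside 11.1% of all features, and in 1 each lay below, beside 8.87%. Mgst2, a microsomal glutathione S-transferase, read -0.49, -0.19 and -0.35 in WT and 0.83, 0.74 and 0.19 in c-Maf KO. Its difference was 0.93 (95% interval 0.48 to 1.38, limma adjusted p = 0.18). Gpx8, a peroxidase of the endoplasmic reticulum, read -0.19, -0.95 and -0.69 in WT and 0.25, 0.19 and 0.54 in c-Maf KO, a difference of 0.94 (95% interval 0.43 to 1.45, adjusted p = 0.21). Mgst2 was highest in c-Maf KO replicate 1, as Gsta3 was, while Gpx8 was highest in c-Maf KO replicate 3 and spread more widely in WT.

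The thioredoxin arm was represented by Txnrd1 and Srxn1. Txnrd1, the cytosolic reductase that recharges thioredoxin with NADPH, read -0.16, 0.025 and -0.11 in WT and 0.22, 0.11 and -0.025 in c-Maf KO. WT replicate 2 lay above c-Maf KO replicate 3, so the genotypes overlapped. The difference was 0.18 (95% interval -0.034 to 0.40, limma adjusted p = 0.46). Srxn1, sulfiredoxin, which repairs overoxidised peroxiredoxins, read -0.061, 0.061 and -0.12 in WT and 0.24, 0.23 and -0.11 in c-Maf KO. In c-Maf KO, replicates 1 and 2 stood above WT and replicate 3 within it. The difference was 0.16 (95% interval -0.12 to 0.44, adjusted p = 0.59).

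Neither gene was near the background: processed intensities ran from 19126 to 24841 for Txnrd1 and from 24275 to 30568 for Srxn1. Of the 20 genes listed for the thioredoxin system, all 20 were measured and none passed. There were 12 positive differences on the value table, and the median difference was 0.093 there and 0.037 on the 5 arrays. In 5 genes each c-Maf KO sample lay above each WT sample, beside 11.1% of all features, and in 1 each lay below, beside 8.87%. Msrb3, a methionine sulfoxide reductase, had the largest difference of the list, 0.89 (95% interval 0.33 to 1.44, limma adjusted p = 0.24), from -0.090, -0.54 and -0.87 in WT and 0.090, 0.51 and 0.56 in c-Maf KO. Msrb1, a selenium-containing enzyme of the same kind, was next among the genes without overlap, at 0.26 (95% interval -0.018 to 0.54, adjusted p = 0.42).

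Nqo1, the quinone reductase often used as a readout of Nrf2, read -0.19, -0.028 and -0.16 in WT and 0.094, 0.20 and 0.028 in c-Maf KO. The genotypes did not overlap and were 0.055 apart at their nearest. The difference was 0.23 (95% interval 0.047 to 0.42, limma adjusted p = 0.31), or 1.18-fold (95% interval 1.03 to 1.34), on the value table and 0.24 (adjusted p = 0.44) on the 5 arrays. Processed intensities were 346.0, 380.5 and 372.6 in WT and 465.5 and 476.1 in c-Maf KO. Nqo1 lies on the chromosome of the deleted gene, its probe 8.32 Mb from that of Maf on mm9, and whether sequence linked to the knockout differs there was not tested. Gsr is on the same chromosome, 83.4 Mb away.

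Me1, the cytosolic malic enzyme that makes NADPH for these reductases, read -0.27, -0.069 and -0.28 in WT and 0.34, 0.15 and 0.069 in c-Maf KO. The genotypes were 0.14 apart at their nearest. The difference was 0.39 (95% interval 0.15 to 0.64, limma adjusted p = 0.24), or 1.31-fold (95% interval 1.11 to 1.55), and 0.31 on the 5 arrays. The other probes of Me1 differed by 0.34 and 0.47, both without overlap.

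Other sources of NADPH were divided. Of the 15 genes listed for NADPH supply 14 were measured and none passed. There were 7 positive and 7 negative, with a median difference of -0.040. In 3 each c-Maf KO sample lay above each WT sample, beside 11.1% of all features, and in 3 each lay below, beside 8.87%. Pgd, of the pentose phosphate pathway, differed by 0.23 (95% interval 0.080 to 0.38, limma adjusted p = 0.25), without overlap. G6pdx, which opens that pathway, differed by -0.085 and Idh1 by -0.13; both were chosen for mention after their values were seen. For the 20 listed genes of quinone and carbonyl detoxification, 19 were measured, 16 were positive, and the median was 0.12. In 8 each c-Maf KO sample lay above each WT sample, beside 11.1% of all features, and in 1 each lay below, beside 8.87%. In that list Akr1b8, an aldo-keto reductase, differed by 0.56 and Ugt1a6a, a glucuronosyltransferase, by -0.49, neither past the threshold (adjusted p = 0.24 for both).

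**Figure D3:**
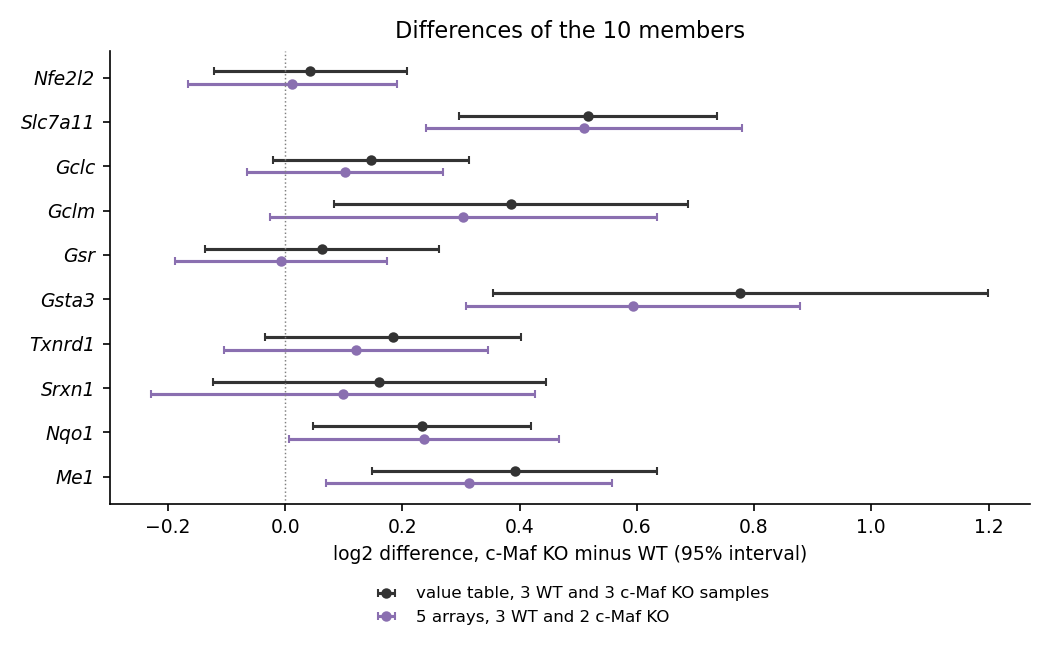
Difference of each of the 10 genes, c-Maf KO minus WT, on the log2 scale (horizontal axis), with its 95% interval, for the value table (black) and the 5 arrays (purple). The value-table intervals of Slc7a11, Gclm, Gsta3, Nqo1 and Me1 lie above 0, and those of Nfe2l2, Gclc, Gsr, Txnrd1 and Srxn1 include it; these intervals are not adjusted for the number of genes tested.

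Positions of the probes are those the files give on mm9. The Gsta3 probes lie at chr1:21255189-21255248 and chr1:21255043-21255102, that of Slc7a11 at chr3:50169700-50169759 and that of Nqo1 at chr8:109912440-109912499. The brightest Me1 probe lies at chr9:86475077-86475136. The Gclm probe is given as chr3:121962174-121964809, a span longer than a probe.

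The partners and regulators of Nrf2 did not lean one way. Of 18 listed genes 17 were measured and none passed; 8 were positive and 9 negative, with a median of -0.021. Keap1 differed by -0.034 (95% interval -0.18 to 0.11), and of the small Maf genes Mafg differed by 0.050 and Mafk by -0.073. Maff, the third small Maf gene, read -0.15, -0.13 and -0.56 in WT and 0.32, 0.13 and 0.31 in c-Maf KO, a difference of 0.53 (95% interval 0.21 to 0.86, limma adjusted p = 0.23). Bach2, a repressor that competes for the same elements, lay the other way, at 0.12, 0.36 and 0.11 in WT and -0.57, -0.11 and -0.41 in c-Maf KO, a difference of -0.56 (95% interval -0.89 to -0.22, adjusted p = 0.23). Bach1, the related repressor, differed by -0.059. Maff and Bach2 were separated between the genotypes, and Keap1, Mafg, Mafk and Bach1 were not. Also separated were Dpp3 and Rbx1, with differences of 0.094 and 0.15, and Syvn1, with -0.18. In 3 of the 17 genes each c-Maf KO sample lay above each WT sample, beside 11.1% of all features. In 2 each lay below, beside 8.87%.

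Targets outside glutathione metabolism were mixed. Of 10 heme and iron genes, all measured, 4 were positive and 6 negative, with a median of -0.022. Hmox1, heme oxygenase 1, read -0.25, -0.15 and -0.34 in WT and 0.52, 0.15 and 0.15 in c-Maf KO, without overlap, and its difference was 0.52 (95% interval 0.22 to 0.81, limma adjusted p = 0.23). Fech, the ferrochelatase that inserts iron into heme, differed by 0.17 (95% interval -0.0028 to 0.34, adjusted p = 0.40), also without overlap. In 2 of the 10 each c-Maf KO sample lay above each WT sample, beside 11.1% of all features, and in 1 each lay below, beside 8.87%. The last was Hmox2, chosen for mention after its values were seen, with a difference of -0.083. Of 10 superoxide and peroxide enzymes, 7 were positive on the value table, with a median of 0.066 there and 0.023 on the 5 arrays. In 3 each c-Maf KO sample lay above each WT sample, beside 11.1% of all features, and in none did each lie below, beside 8.87%. Sod3, the extracellular superoxide dismutase, differed by 1.00 (95% interval 0.42 to 1.58, adjusted p = 0.23), from -0.18, -1.08 and -0.86 in WT and 0.23, 0.18 and 0.48 in c-Maf KO. Rac2, a GTPase that activates the phagocyte NADPH oxidase, differed by 0.12 (95% interval -0.023 to 0.26, adjusted p = 0.46), without overlap.

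Slc7a11 is also a target of Atf4, the factor of the amino acid response. Of 20 genes of that response, all measured, 14 were positive, with a median of 0.076 and none past the threshold. In 5 each c-Maf KO sample lay above each WT sample, beside 11.1% of all features, and in none did each lie below, beside 8.87%. Nupr1, a stress-induced regulator, had the largest difference, 0.56 (95% interval 0.29 to 0.83, limma adjusted p = 0.18). Asns, Trib3 and Atf4, chosen for mention after their values were seen, differed by 0.17, 0.087 and -0.014.

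Over all these lists, and leaving out the 10 genes themselves, 137 of 146 genes were measured. None passed in either fit or with the trend and robust options, and an unadjusted p under 0.05 was reached by 26 on the value table, beside 12.6% of all features, and by 27 on the 5 arrays, beside 11.0%. Of the 137, 93 were positive and 44 negative on the value table, with a median difference of 0.086. On the 5 arrays, which lack c-Maf KO replicate 1, the median was 0.040, against -0.011 over all features. For 40, or 29.2%, each c-Maf KO sample lay above each WT sample, beside 11.1% of all features, and for 10, or 7.3%, each lay below, beside 8.87%. The lists were chosen with earlier results of these data known, and their genes share samples. These counts are therefore no test of the lists.

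**Figure D4:**
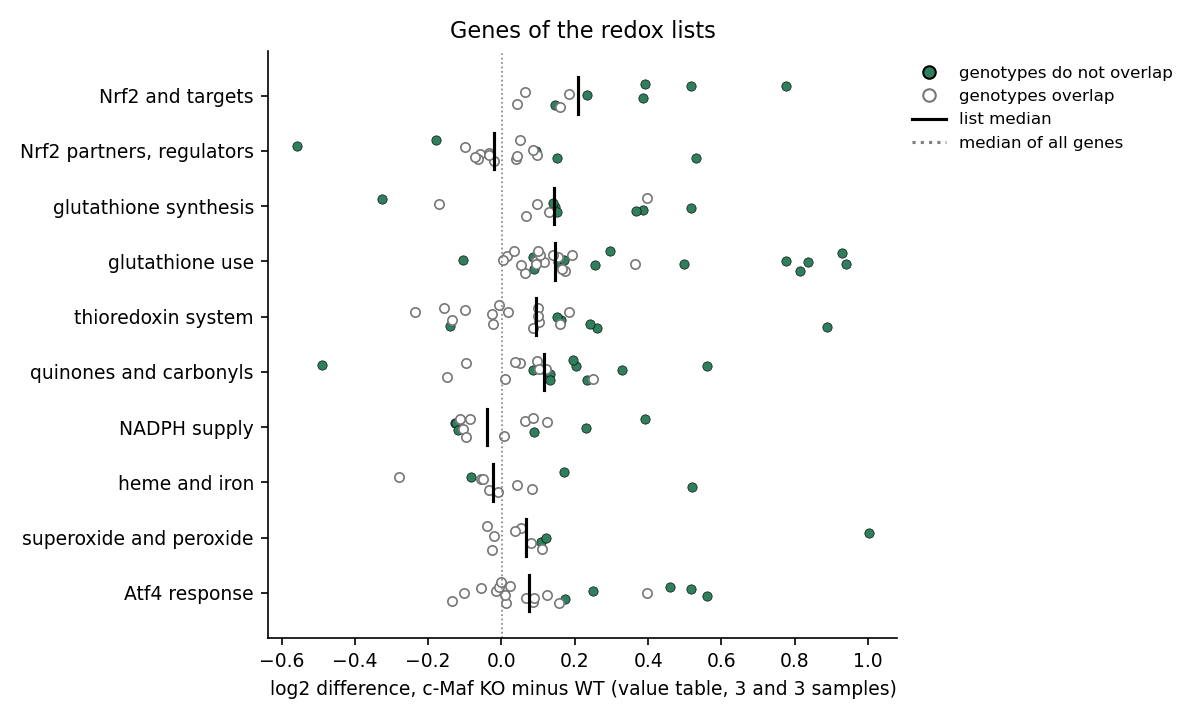
Difference of each measured gene, c-Maf KO minus WT, on the log2 scale (horizontal axis, value table) for the 10 genes and 9 related lists; filled points are genes whose genotypes do not overlap, bars are list medians and the dotted line is the median of all features. The glutathione lists lie mostly right of 0, with medians of 0.14 and 0.15, while the regulators, NADPH supply and heme and iron lists centre within 0.040 of 0.

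Some replicates held the same place in most of the 10 genes. WT replicate 2 was the highest WT sample in 8, while the lowest was replicate 1 in 5, replicate 3 in 4 and replicate 2 in 1. In c-Maf KO, replicate 1 was the highest in 8 and replicate 3 the lowest in 10. These orders were read without centring the columns of the value table. Over all probes the column medians were 0.024, 0.0070 and -0.0088 in WT and -0.057, 0.068 and -0.054 in c-Maf KO. For some genes, Gsta3 and Me1 among them, the offset between c-Maf KO replicates 2 and 3 is larger than their gap. The mean log2 ratio over the 10 genes was -0.19, -0.046 and -0.17 in WT and 0.27, 0.17 and 0.019 in c-Maf KO. WT replicate 2 and c-Maf KO replicate 3 were thus the nearest samples of the 2 genotypes.

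Markers of cell types were read beside the pathway. Of 14 fibroblast and stromal markers 13 were measured, and all 13 had a positive difference (median 0.87); 11 had each c-Maf KO sample above each WT sample, beside 11.1% of all features. None passed, and an unadjusted p under 0.05 was reached by 10 on the value table, beside 12.6%, and by 8 on the 5 arrays, beside 11.0%. Sparc and Tagln, the brightest, differed by 0.87 and 0.71, and Lum was not well above background on any of the 5 arrays. Their mean log2 ratio was -0.086, -1.01 and -0.61 in WT and 0.19, 0.074 and 0.56 in c-Maf KO. Their order within a genotype was not that of the 10 genes: WT replicate 2 was the lowest WT sample for the markers and the highest for the pathway, and c-Maf KO replicate 3 the highest c-Maf KO sample for the markers and the lowest for the pathway. The part of such cells in the pathway's differences was not tested beyond these values, and in bulk RNA fewer cells of a type and less RNA per cell cannot be told apart. Gpx8, Sod3, Msrb3 and Nupr1 had c-Maf KO replicate 3 as their highest sample, as the mean of the stromal markers did. So did Gpx3 and Gstt1 of the glutathione-using genes, chosen for mention after their values were seen. These genes are not a full list, and Gsta3, Mgst2 and Hmox1 were highest in c-Maf KO replicate 1.

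The 10 macrophage markers were all measured, with a median of -0.20, and 9 were negative. Each c-Maf KO sample lay below each WT sample for 5 of the 10, beside 8.87% of all features, and above for 1, beside 11.1%. An unadjusted p under 0.05 was reached by 5 markers on the value table, beside 12.6% of all features, and by 4 on the 5 arrays, beside 11.0%. Their mean log2 ratio was 0.026, 0.063 and 0.024 in WT and -0.0094, -0.23 and -0.086 in c-Maf KO, and the brightest, Csf1r and Cd68, differed by -0.088 and -0.054. Chosen after the values were seen, Fcgr1 and Lyz2 mark the ends of the list, at -0.44 and 0.33. The labels name liver as the tissue, and of 11 hepatocyte markers 7, among them Alb, Ttr and Apoa1, were not well above background on any of the 5 arrays, while 3, Apoa2 and Afp the brightest, were on all 5. All 11 neutrophil markers were measured, with a median of -0.15, and the brightest, Csf3r and S100a9, differed by -0.15 and -0.53. No gene of any marker list passed the threshold in either fit. With the trend and robust options 1 did in each, the neutrophil marker Ly6g, which lay against its list's median with a difference of 1.55 (limma adjusted p = 0.023 on the value table and 0.037 on the 5 arrays with these options).

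**Figure D5:**
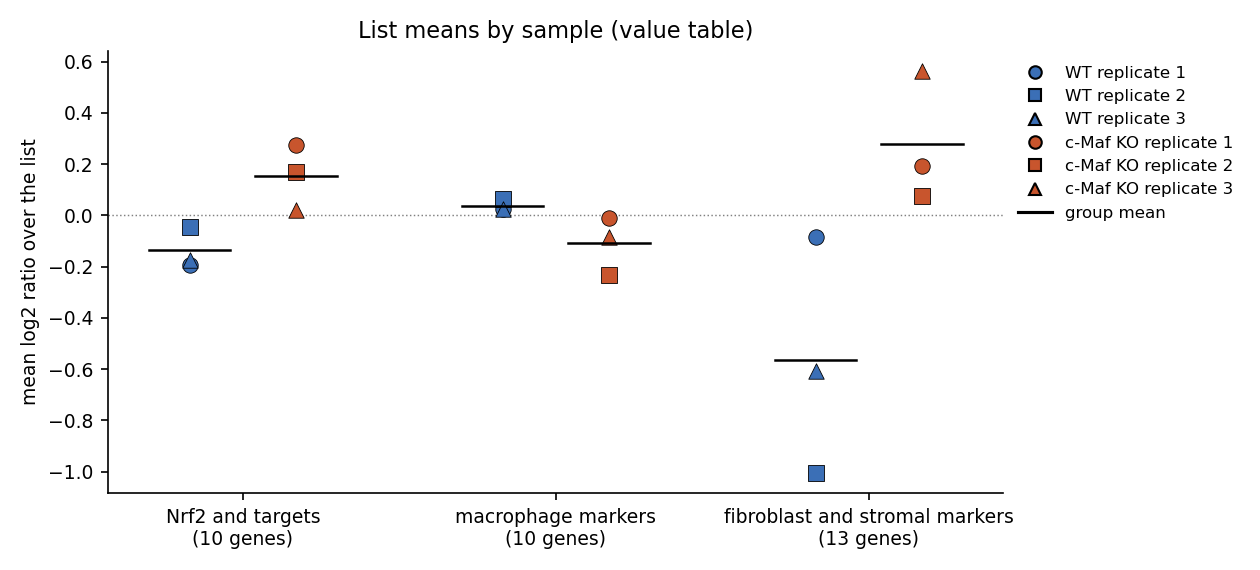
Mean log2 ratio by sample (vertical axis, value table) over the 10 genes, 10 macrophage markers and 13 fibroblast and stromal markers, with a symbol per replicate and a bar for each group mean. The stromal mean is lowest in WT replicate 2 at -1.01 and highest in c-Maf KO replicate 3 at 0.56, the samples in which the pathway mean is highest in WT and lowest in c-Maf KO.

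The genes nearest in pattern were sought for the 6 genes whose genotypes did not overlap, as the 3 features with the smallest mean absolute difference in log2 ratio over the 6 samples. For Gsta3 the nearest was Arg1, the arginase, at 0.049, then Sirpb1b at 0.076. Slc7a11 was nearest to Myo1d at 0.037, and Gclm to Cav2 at 0.037 and then to Me1 at 0.042. The nearest features of Me1 and Nqo1 were probes without a gene name, at 0.031 and 0.025; next came Procr and Gadd45g for Me1, at 0.034 each, and Golim4 for Nqo1, at 0.028. Gclc was nearest to Skap2, at 0.013. Gclm and Me1 were the one pair of the 10 genes that appeared in these lists.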

How the data were processed

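The arrays' spot intensities were extracted by the authors with Agilent Feature Extraction 10.7.3.1, per the file headers and the submitters' processing notes. The deposited value table holds linear ratios: its log2 values followed the scanner signal on the 5 arrays with r = 1, and 100% of its probes had a median log2 ratio within 0.001 of 0. No source used here states any floor on dim values. Control and flagged spots of the scanner files were dropped, and log2 was taken of each processed intensity over its array's 75th percentile (410.8 to 494.5). Probes well above background on at least 2 of 5 arrays were kept (28273 of 55681), and the kept probe of highest mean signal stood for a gene. Symbols were updated through RefSeq for 28026 probes.

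Differences were tested with limma 3.58.1 in R 4.3.3 (lmFit, eBayes, Benjamini-Hochberg over 20252 features), without covariates, and the code was tested on simulated data. The number of arrays limits the precision. WT replicates 1 and 3 share a tag in their file names and were kept as separate samples.

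Named are all 10 genes; of each pathway list up to 4 genes past the test or, where fewer than 2 passed, the 2 with the largest non-overlapping differences; the 2 brightest of the marker lists described; Maf; and the Gsta family. The partners of Nrf2 and xCT, and the genes so marked in the text, were named after their values were seen. The genes, lists and rules were chosen with earlier results of these data known. Alternatives were other background corrections, scalings, filters, limma options, a replicate block, WT replicates 1 and 3 averaged, centred table columns, and each replicate left out; the averaging and the centring were chosen after seeing the data.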

Additional observations from a re-analysis of the deposited data

How the results depend on the processing

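No Nrf2 pathway gene passed under the settings run, except 1 with limma's trend and robust options on each data set (Gsta3 on the 5 arrays, Slc7a11 on the value table). The count of all features past the threshold, 7 in both fits, was less stable. On the 5 arrays it was 21 with normexp, 1 where probes had to be well above background on all 5 arrays, 80 with the trend and robust options, 1 with WT replicates 1 and 3 averaged, and 1 to 14 with one replicate left out. On the value table it was 2 without the filter, 22 with the filter on all 5 arrays, 84 with the trend and robust options, 2 with WT replicates 1 and 3 averaged, and 2 to 95 with one replicate left out, 95 without WT replicate 1. On the 5 arrays, 3 of 5 called features were higher in c-Maf KO with quantile normalization, against 5 of 7 in the main fit. On the value table it was 4 of 7 in both. The median difference of the 10 genes was 0.11 (without c-Maf KO replicate 2) to 0.29 (without c-Maf KO replicate 3) on the 5 arrays and 0.18 to 0.27 on the value table. On the 5 arrays the difference of Gsr, -0.0074, turned to 0.011 with normexp, 0.0012 with quantile normalization, 0.0072 with the percentile over detected probes and 0.019 with the replicate block, and ran from -0.046 to 0.022 with one replicate left out. Leaving one out also took Nfe2l2 from -0.055 to 0.079 and Srxn1 from -0.065 to 0.26 on the 5 arrays, where Txnrd1 ran from 0.065 (without c-Maf KO replicate 2) to 0.18. On the value table it took Gsr from -0.0058 to 0.12, Nfe2l2 from 0.014 to 0.096 and Srxn1 from 0.10 to 0.28, the lowest each time without c-Maf KO replicate 1 and the highest without c-Maf KO replicate 3. The cause was not tested. Same-numbered samples did not deviate together (r of -0.060 to 0.043 over 3 pairs, against -0.049 to 0.076 over 6 pairs of unlike number), so the numbers are not taken to pair the samples; with the replicate block, 0 features passed on the 5 arrays and 3 on the value table, and the median of the 10 genes was 0.15 and 0.21. A block for slide or scan was not run, since all arrays with scanner files shared 1 slide and 1 scan. The probe of Slc7a11 was dim, and its difference on the 5 arrays was 0.51 and with normexp 0.23. The normexp setting added an offset of 50, which by itself lowers the log2 difference of such a probe.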
